A study of Rattus norvegicus with 18 samples.

Results

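Synovial tissue from the knee was compared between rats with adjuvant-induced arthritis in a hot model (AIA-hot) and rats with plain adjuvant-induced arthritis (AIA), on 3 single-colour arrays a group. These 6 arrays, chosen by the group that their labels name, belong to a series of 18. All animals were male Lewis rats of 6 to 8 weeks and 200 ± 20 g, kept at 24 degrees Celsius, and both groups carried the adjuvant disease and neither is labelled with a drug. How the hot model was produced, at what time tissue was taken, and whether an array held 1 animal or a pool are not given in the sources used here. Every array carries the same replicate name in the labels and no animal is given, so the numbers 1 to 3 only name arrays, and p-values measure the spread between arrays, part of which may be technical. Other groups served as background where named: healthy controls, AIA in a cold model (AIA-cold), and AIA-hot rats treated with the herbal formula WTD (AIA-hot-WTD), with 3 arrays each.

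In adjuvant arthritis, an injection of adjuvant provokes T cells whose response spreads to the joints. Macrophages and lining fibroblasts of the synovium then release cytokines such as interleukin-1 beta, chemokines that draw in further leukocytes, and proteases that break down cartilage. Interferons, released by lymphocytes and other cells, raise antiviral genes and the machinery that presents peptides on MHC class I, which CD8 T cells read. The synovium also contains fat, so adipocyte transcripts are part of its normal RNA.

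No single gene passed the test. Of 23617 genes tested, of which 12059 had a symbol, 0 (0%) differed between AIA-hot and AIA at an adjusted p under 0.05 (limma, Benjamini-Hochberg), and the smallest adjusted p was 0.824. At an unadjusted p under 0.05, 568 genes (2.41%) were higher and 644 (2.73%) lower in AIA-hot; with quantile normalization the split was 719 higher and 464 lower. The 3 AIA-hot arrays lay above all 3 AIA arrays for 923 genes (3.91%) and below them for 1438 (6.09%), which gives the background for every count of such genes that follows. The median difference over all genes was -0.04, with 42.6% of genes higher and 57.3% lower. Values are therefore given by array, as a log2 level relative to the 75th percentile of its array, and differences are AIA-hot minus AIA on that log2 scale.

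Among the genes that stood higher on all 3 AIA-hot arrays were the cytokine gene Il1b, genes of MHC class I presentation, and T cell genes including both chains of CD8. The list means of cytokine, interferon gamma, interferon signalling and cartilage genes also lay above AIA on all 3 AIA-hot arrays, by little on replicate 3. Further lists differed mainly on AIA-hot replicates 1 and 2. On those arrays the list means of collagen, protease, acute phase and cell division genes lay above plain AIA and those of adipocyte genes below it, while on replicate 3 they lay within or below the AIA range. The antiviral interferon genes rested on replicate 2.

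These patterns met a split of the arrays over slides, each of which was scanned once. AIA-hot replicates 1 and 2 shared slide 2 with AIA replicates 2 and 3. AIA-hot replicate 3 lay on slide 3 with the AIA-hot-WTD arrays, and AIA replicate 1 lay on slide 1 with the controls. The AIA-cold arrays all lay on slide 4, apart from both groups. Replicate 3 of AIA-hot correlated with the AIA arrays at 0.9803 to 0.9849 and with AIA-hot replicates 1 and 2 at 0.9739 and 0.9639 over all genes. Against the mean of the AIA arrays, AIA-hot replicate 3 had 973 genes (4.12%) over 1 log2 unit away, while replicate 1 had 1366 (5.78%) and replicate 2 had 2689 (11.4%). Each AIA array set against the other two AIA arrays gave 954 to 1056 such genes, a range that holds AIA-hot replicate 3. The brightness at the 75th percentile was 218 to 314 intensity units on the 6 arrays, and 56.4% to 63.8% of probes were well above background. Whether the slide or the animal sets replicate 3 apart was not tested. Control replicate 1 also stood apart, with 72.8 intensity units and 43.3% of probes well above background, and it enters the estimate of the spread and the control values given beside some results; without it 0 genes passed and 2015, rather than 1212, had an unadjusted p under 0.05. Prg4, the lubricin gene of the synovial lining, was well above background on every one of the 6 arrays (6.87 to 7.85), as the tissue label has it.

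**Figure D1:**
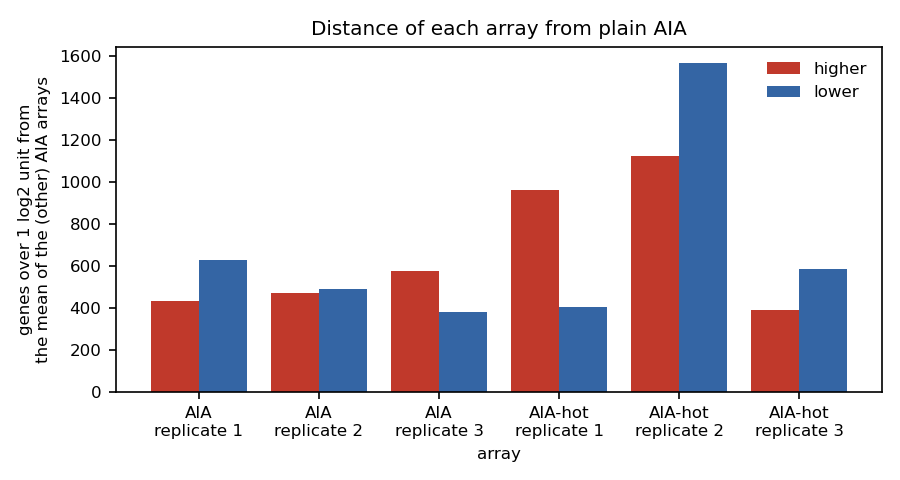
Number of genes (y axis) whose log2 level on each array (x axis) lay over 1 log2 unit from the mean of the 3 AIA arrays, or of the other AIA arrays where the array is itself AIA; red bars count higher and blue bars lower genes. AIA-hot replicate 2 had 1124 higher and 1565 lower genes, and AIA-hot replicate 3 had 390 and 583, close to the AIA arrays.

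The list of MHC class I presentation lay higher on all 3 AIA-hot arrays. Of 19 measured members of that list, 17 were higher in AIA-hot, and for 11 (57.9%, against 3.91% of all genes) the lowest AIA-hot array lay above the highest AIA array. The differences were small, with a median of 0.29 and a range from -0.06 to 0.66, and none passed the test. Without each of the 6 arrays in turn the median of the list stayed between 0.21 and 0.35, and on the shared slide alone it was 0.33. Many of these genes lie side by side in the MHC region, and the RT1 genes are near-identical copies whose probes may read one another, so the members are not independent.

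Of those 11 genes, 5 carry, in their promoter, the core of the interferon-stimulated response element, the site that interferon-activated factors bind. The core was searched as GAAANNGAAA on both strands, from 250 bases before to 50 after the start site. It was found in 9 of the 17 class I promoters held by the RefSeq table (52.9%) and in 3.77% of the 27457 promoters of that table. It was present in 5 of 10 promoters of the members without overlap and in 4 of 7 promoters of the members with overlap. The 5 are shown with the promoter of B2m, which holds the core but was not higher. Whether the core bears on the array values was not tested. All are on build GRCr8, 5′ to 3′ on the strand of the gene, with the core, or its reverse complement, in capitals; in Tapbp, a pair of overlapping cores forms a single run.
RT1-S3, chr20:2675278-2675577, plus strand: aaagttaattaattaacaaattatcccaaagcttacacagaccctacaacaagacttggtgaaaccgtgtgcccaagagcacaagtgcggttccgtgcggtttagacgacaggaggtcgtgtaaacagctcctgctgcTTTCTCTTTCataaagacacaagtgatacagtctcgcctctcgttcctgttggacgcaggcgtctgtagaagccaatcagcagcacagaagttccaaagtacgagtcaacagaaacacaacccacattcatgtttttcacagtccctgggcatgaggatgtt
RT1-N3, chr20:2666239-2666538, plus strand: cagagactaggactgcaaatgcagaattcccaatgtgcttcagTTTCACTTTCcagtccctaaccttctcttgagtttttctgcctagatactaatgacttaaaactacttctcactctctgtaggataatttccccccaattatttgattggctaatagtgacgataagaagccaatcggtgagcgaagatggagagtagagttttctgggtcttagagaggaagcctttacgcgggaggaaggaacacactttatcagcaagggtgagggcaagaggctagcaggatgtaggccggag
Tap1, chr20:4668494-4668793, minus strand: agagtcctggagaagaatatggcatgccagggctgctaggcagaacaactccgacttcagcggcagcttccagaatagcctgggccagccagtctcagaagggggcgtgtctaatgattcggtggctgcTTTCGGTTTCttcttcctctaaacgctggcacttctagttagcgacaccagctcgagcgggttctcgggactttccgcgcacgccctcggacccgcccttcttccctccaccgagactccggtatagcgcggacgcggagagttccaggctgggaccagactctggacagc
Psmb8, chr20:4656982-4657281, minus strand: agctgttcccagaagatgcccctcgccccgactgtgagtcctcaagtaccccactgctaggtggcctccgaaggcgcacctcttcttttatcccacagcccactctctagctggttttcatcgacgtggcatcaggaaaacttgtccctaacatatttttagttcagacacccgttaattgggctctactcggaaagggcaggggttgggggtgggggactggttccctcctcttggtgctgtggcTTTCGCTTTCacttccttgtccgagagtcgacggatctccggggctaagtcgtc
Tapbp, chr20:4967828-4968127, minus strand: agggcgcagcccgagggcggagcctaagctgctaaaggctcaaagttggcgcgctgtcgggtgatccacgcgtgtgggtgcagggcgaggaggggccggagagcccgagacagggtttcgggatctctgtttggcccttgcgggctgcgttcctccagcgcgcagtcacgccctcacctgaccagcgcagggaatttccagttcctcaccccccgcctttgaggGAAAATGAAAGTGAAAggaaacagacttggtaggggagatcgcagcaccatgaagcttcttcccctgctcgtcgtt
B2m, chr3:129549080-129549379, plus strand: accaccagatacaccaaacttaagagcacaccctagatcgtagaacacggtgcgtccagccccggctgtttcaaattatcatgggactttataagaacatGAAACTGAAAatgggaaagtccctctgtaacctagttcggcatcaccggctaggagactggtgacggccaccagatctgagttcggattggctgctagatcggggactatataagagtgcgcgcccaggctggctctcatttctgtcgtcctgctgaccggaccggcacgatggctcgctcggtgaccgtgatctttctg

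The core began 112 bases before the start site in RT1-S3, 207 in RT1-N3, 121 in Tap1, 150 in B2m and only 4 in Psmb8, where it runs across the start. In Tapbp the overlapping cores began 26 and 20 bases before it. A match describes these letters and does not show that a factor was bound.

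RT1-S3, a class I heavy chain gene, stood at 3.41, 3.33 and 3.32 on the AIA arrays and at 3.64, 4.70 and 3.70 on the AIA-hot arrays, a difference of 0.66 ± 0.24 (SE) or 1.58-fold. RT1-N3, another heavy chain gene, read 0.60, 0.46 and 0.49 in AIA and 0.83, 1.57 and 0.80 in AIA-hot. For both, replicate 2 was far the highest, yet the other AIA-hot arrays were also above every AIA array. RT1-A2 and RT1-CE3, classical class I genes, differed by 0.33 ± 0.13 and 0.34 ± 0.14, with AIA-hot arrays at 4.60 to 4.87 and 3.45 to 3.67.

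The peptide-loading genes were picked out for their promoters after their values were seen. Tap1, one chain of the pump that carries peptides to class I molecules, lay at -0.90, -0.97 and -0.96 in AIA and at -0.35, 0.34 and -0.84 in AIA-hot, so replicate 3 was barely clear of plain AIA. Psmb8, a subunit of the immunoproteasome, read 2.23, 1.94 and 2.12 in AIA and 2.34, 2.69 and 2.41 in AIA-hot. Tapbp, which tethers class I molecules to that pump, read 1.25, 1.27 and 1.21 against 1.39, 1.87 and 1.35. B2m, the light chain shared by all class I molecules, gave 8.78, 8.99 and 9.14 in AIA and 8.82, 8.79 and 9.13 in AIA-hot, and the groups overlapped throughout.

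**Figure D2:**
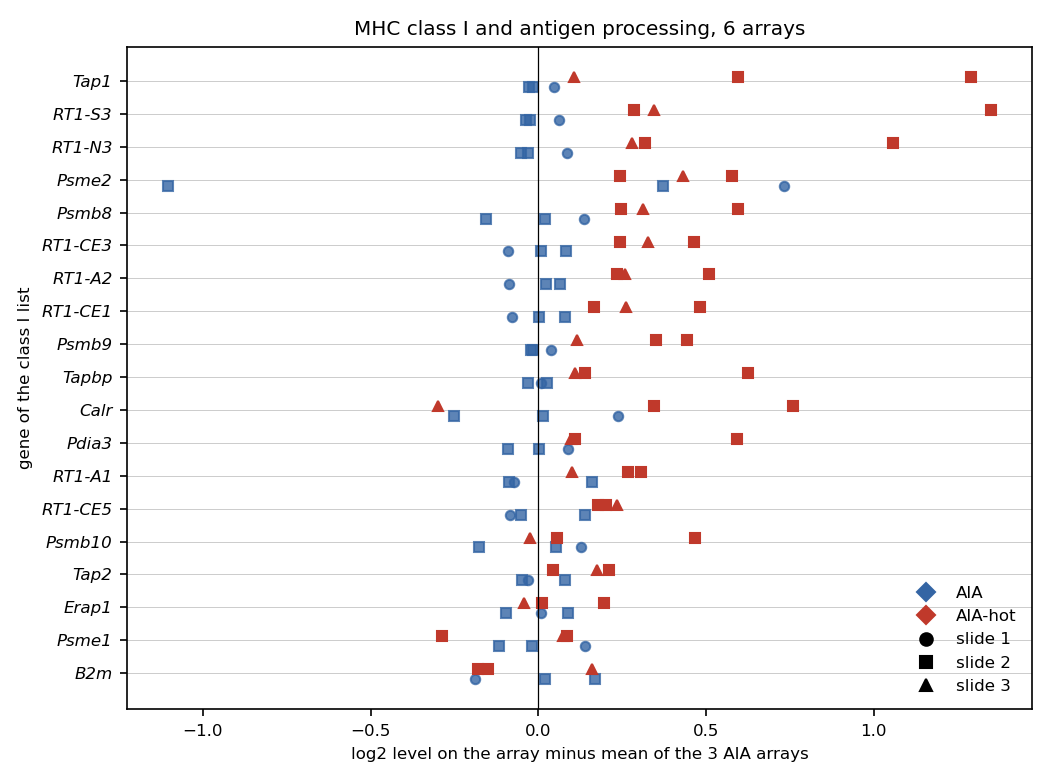
Each row is 1 of the 19 measured genes of MHC class I presentation; points give the log2 level on an array minus the mean of the 3 AIA arrays (x axis), blue for AIA and red for AIA-hot, with the marker shape giving the slide. For 11 genes every red point lies to the right of every blue point, while B2m, Psme1 and Erap1 lie around 0.

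T and NK cell genes also had list means clear of AIA on all 3 AIA-hot arrays. Of 16 measured markers 14 were higher, with a median difference of 0.79, and 8 (50% against 3.91% of all genes) did not overlap between the groups. Of those 8, Cd3e and Klrd1 were well above background on 0 AIA arrays and on 2 AIA-hot arrays. The mean of the list was -2.55, -2.43 and -2.70 on the AIA arrays and -1.42, -2.06 and -1.76 on the AIA-hot arrays, so each AIA-hot array lay above each AIA array. Without each array in turn the median stayed between 0.71 and 1.05, and it was 0.20 with normexp, another background correction, after which a constant is added to every signal. On control arrays the mean was -3.28 to -2.38, the highest being that of control replicate 1. In whole tissue, more cells of a type and more RNA per cell cannot be told apart.

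The T cell receptor complex led that list. Cd3g, a signalling chain of the receptor, read -1.73, -1.98 and -1.86 in AIA and 0.72, 0.37 and -0.40 in AIA-hot, a difference of 2.09 ± 0.75 or 4.26-fold. Cd8b, one chain of the CD8 co-receptor of cytotoxic T cells, read -3.04, -2.99 and -3.47 in AIA and -1.06, -1.27 and -2.33 in AIA-hot, 1.61 ± 0.42 higher (adjusted p = 0.866, limma). Cd8a, the other chain, was 1.08 ± 0.39 higher, although it was well above background on 1 AIA array and on all 3 AIA-hot arrays. Zap70, the kinase that relays the receptor's signal, was 1.72 ± 0.63 higher. In each of these genes AIA-hot replicate 3 was the lowest of its group and still above AIA.

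Genes of helper T cells and of killing did not separate in the same way. Cd4 lay between -1.73 and -1.13 in AIA and between -1.64 and -1.44 in AIA-hot. The granzyme and perforin genes Gzma, Gzmb, Gzmk and Prf1 gave differences of 0.03, 0.68, 0.40 and 0.45, each with overlapping arrays. Cd2 and Lck were well above background on 0 AIA arrays, and Cd2 ranged from -5.88 to -2.90 within AIA-hot.

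Lymphocyte genes outside the list were among those with the smallest p or the largest difference. Tnfrsf14, a receptor that tunes T cell activation, read -3.21, -2.89 and -3.35 in AIA and -0.62, -0.37 and -1.59 in AIA-hot, a difference of 2.29 ± 0.57 or 4.88-fold (adjusted p = 0.864, limma). Map4k1, a kinase of blood cells that restrains T cell receptor signalling, was 0.95 ± 0.21 higher, from -3.81 to -3.30 in AIA and from -2.77 to -2.32 in AIA-hot. In AIA-hot-WTD, whose arrays share slide 3 with AIA-hot replicate 3, Tnfrsf14 ranged from -2.24 to -0.13 and Cd8b from -2.09 to -1.49.

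**Figure D3:**
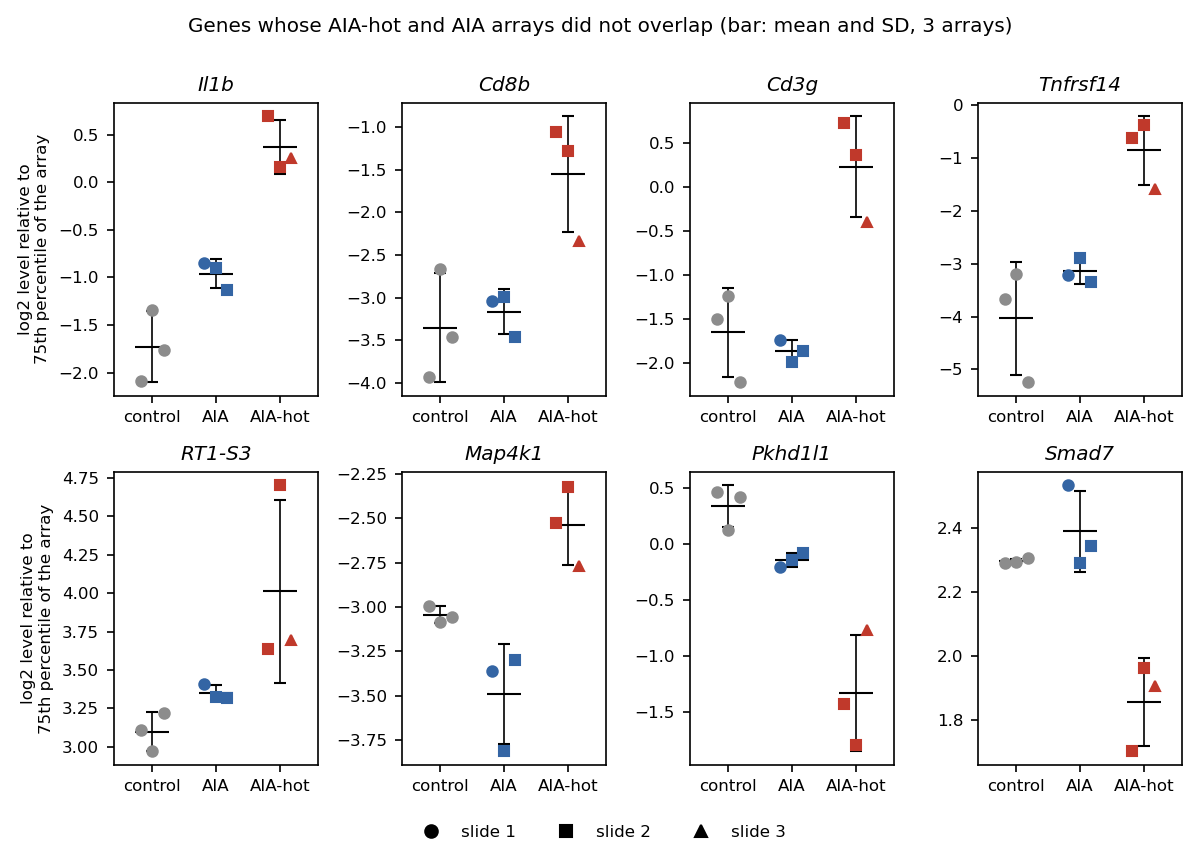
Log2 level relative to the 75th percentile of the array (y axis) for 8 genes on the control, AIA and AIA-hot arrays; points are arrays, marker shapes are slides, and bars are mean and SD over 3 arrays. The AIA-hot arrays lie on one side of the AIA arrays in every panel, at 0.16 to 0.69 for Il1b against -1.13 to -0.85 in AIA.

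Among the cytokines Il1b differed most. The gene of interleukin-1 beta, a main driver of joint inflammation, stood at -0.85, -0.90 and -1.13 in AIA and at 0.69, 0.16 and 0.26 in AIA-hot. That is 1.33 ± 0.32 or 2.52-fold higher (adjusted p = 0.864, limma), and 1.44 on the shared slide alone. Control arrays lay at -2.08 to -1.34, so AIA stood between control and AIA-hot. The difference of AIA-hot from AIA-cold was 0.94 and did not pass (adjusted p = 0.729, limma). Il1rn, the gene of the natural antagonist of the interleukin-1 receptor, was 1.20 ± 0.47 higher without overlap, at -1.25 to -0.65 in AIA and -0.42 to 0.72 in AIA-hot. Ltb, a lymphotoxin chain made by lymphocytes, was 0.92 ± 0.37 higher, again without overlap.

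The cytokine list as a whole had a smaller difference, although its mean, at 0.65 to 1.06 in AIA-hot, lay above the AIA arrays at 0.54 to 0.61. Of 20 measured cytokines and receptors 16 were higher, with a median of 0.22, and 4 did not overlap (20%). Il6, the gene of another main cytokine of arthritis, read -3.74, -3.78 and -3.27 in AIA and -2.90, -3.07 and -4.47 in AIA-hot. It was well above background on only 1 AIA array and 2 AIA-hot arrays. Its difference was 0.12 ± 0.47, and it was -0.17 without AIA-hot replicate 1 and -0.09 without replicate 2. S100a8 and S100a9, the alarmins of neutrophils and monocytes, varied within AIA from -0.67 to 3.57 and from 0.36 to 4.10, and the AIA-hot arrays lay inside those ranges. Their differences of 0.51 ± 1.39 and 0.60 ± 1.29 became -0.47 and -0.26 without AIA replicate 2. Across 14 neutrophil genes the AIA arrays had means of 0.14, -2.77 and -1.59, and the AIA-hot arrays lay between.

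Chemokines split into an even and an uneven group. Of 21 measured CC chemokines and receptors 15 were higher, 6 (28.6%) without overlap, and 2 (9.52%, against 6.09% of all genes) were lower without overlap. Ccl3 and Ccl4, which attract macrophages and T cells, were 0.69 ± 0.24 and 0.80 ± 0.28 higher. Ccl4 stood at -3.06, -2.77 and -3.21 in AIA and at -2.31, -2.10 and -2.21 in AIA-hot, with replicate 3 between the others. Ccl2 and Ccl7, attractants of monocytes, differed by 1.37 ± 0.63 and 1.98 ± 0.76 only through replicates 1 and 2. Ccl7 read -0.64, 0.24 and -0.07 in AIA and 2.41, 3.55 and -0.48 in AIA-hot, and Ccl2 read 0.50, 1.54 and 1.55 against 2.99, 4.07 and 0.64. Ccr2, the receptor of Ccl2, differed by 0.88 ± 0.39, with overlap.

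Antiviral interferon genes were high on one AIA-hot array, replicate 2. Of 37 measured antiviral effectors 36 had a positive difference, with a median of 0.46, but 5 (13.5%) were free of overlap and the median was 0.03 without AIA-hot replicate 2. The mean of the list was 1.11, 0.95 and 0.74 on the AIA arrays and 0.77, 2.16 and 1.21 on the AIA-hot arrays, so replicate 1 lay within AIA. Isg15, a ubiquitin-like protein added to other proteins under interferon, was also highest on replicate 2. It read 3.76, 3.04 and 2.33 in AIA and 1.94, 5.59 and 3.58 in AIA-hot. Its replicate 1 lay below every AIA array and its replicate 3 within the AIA range. Isg15 was chosen after its values were seen. The 5 genes of that modifier system had a median of 0.67, and of 0.05 without replicate 2.

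Some interferon genes were nonetheless higher on all 3 AIA-hot arrays. Slfn4, a Schlafen gene of myeloid cells, read 1.38, 1.00 and 0.91 in AIA and 1.64, 3.65 and 1.71 in AIA-hot. Ifit1bl, of the family that binds foreign RNA, was 0.97 ± 0.50 higher, at -1.24 to -0.59 in AIA and -0.40 to 0.21 in AIA-hot. Of 12 genes typical of interferon gamma 11 were higher and 4 (33.3%) did not overlap; Gch1, which makes the cofactor of nitric oxide synthase, differed by 0.68 ± 0.28, and Igtp, a GTPase of cell-autonomous defence, by 0.56 ± 0.29. That list kept a median of 0.24 without replicate 2. Cxcl10, a chemokine of the same programme, went the other way at -0.36 ± 0.97, with AIA arrays from 0.11 to 2.36.

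The response element core was searched in the promoters of the interferon lists too. It was held by 17 of 30 antiviral effector promoters (56.7%) and by 7 of 11 in the interferon gamma list (63.6%). The other interferon lists held it less often: 2 of 6 promoters of RNA and DNA sensors (33.3%), 3 of 14 of signalling genes (21.4%) and 0 of 3 of the modifier system. In the T and NK cell list it was held by 1 of 12 (8.33%) and in the adipocyte list by 0 of 12.

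Signalling genes of the pathway showed the replicate split again. Jak2, a kinase of cytokine receptors, read 0.51, 0.49 and 0.50 in AIA and 1.42, 1.87 and 0.41 in AIA-hot, and Socs3, an inhibitor of that signalling, read -3.33, -3.23 and -2.93 against -1.34, -1.07 and -3.08. Irf1, a transcription factor that drives class I genes, was 0.33 ± 0.16 higher on all 3 arrays, at -1.35 to -1.02 against -1.67 to -1.47. Socs1 stayed at the background level on all 6 arrays. Of 19 measured signalling genes 15 were higher, 4 (21.1%) without overlap. Those 4 were Irf1, Socs1, Tyk2 and Ifnar1, with differences of only 0.16 for Tyk2 and 0.11 for Ifnar1.

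MHC class II genes, which present peptides to CD4 T cells, were higher for 11 of 11 members with a median of 0.62, yet only RT1-DOa did not overlap, and it was measured above background on 0 AIA arrays and 1 AIA-hot array. RT1-Db1 read 2.74, 2.58 and 2.72 in AIA and 3.71, 4.40 and 2.48 in AIA-hot. The list mean was 2.35 and 2.94 on AIA-hot replicates 1 and 2 and 1.52 on replicate 3, which was below the AIA arrays at 1.56 to 1.70. The list median was 0.32 without replicate 2 and 1.09 without replicate 3.

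Macrophage genes followed that order less strongly. Of 23 measured markers 18 were higher with a median of 0.21, which was 0.00 without AIA-hot replicate 2. Fcgr2b, the inhibitory Fc receptor, read 0.39, 0.41 and 0.57 in AIA and 2.00, 2.22 and 0.49 in AIA-hot. Without overlap, 4 of 23 markers (17.4% against 3.91% of all genes) were higher and 3 (13% against 6.09%) lower. The higher ones were Fcgr3a, Clec10a, Cd209f and Ly86, with differences of 0.98, 0.73, 0.91 and 0.64. The lower ones were Msr1, Timd4 and Trem2, receptors of resident or lipid-handling macrophages, with differences of -0.43, -0.34 and -0.39. Mrc1, Cd163 and Lyve1 overlapped, with differences of 0.12, 0.12 and -0.26.

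Complement and acute phase genes held some of the larger separated differences. Cfb, complement factor B of the alternative pathway, read 1.73, 1.38 and 2.09 in AIA and 3.26, 3.53 and 2.50 in AIA-hot, 1.36 ± 0.41 or 2.57-fold higher. C3, the central complement protein, read 1.44, 0.71 and 1.51 against 3.71, 3.32 and 1.67. Both lay clear of AIA on all 3 arrays, with replicate 3 the nearest. Lbp, which hands bacterial lipopolysaccharide to its receptor, stood at 1.49 to 1.64 in AIA and at 4.23, 4.27 and 1.37 in AIA-hot. Ptx3, a pentraxin made locally in inflamed tissue, cleared the background on 0 AIA arrays and on AIA-hot replicates 1 and 2 only, at -2.29 and -1.37 against -4.98 on replicate 3. Of 24 measured members 19 were higher, 5 (20.8%) without overlap.

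**Figure D4:**
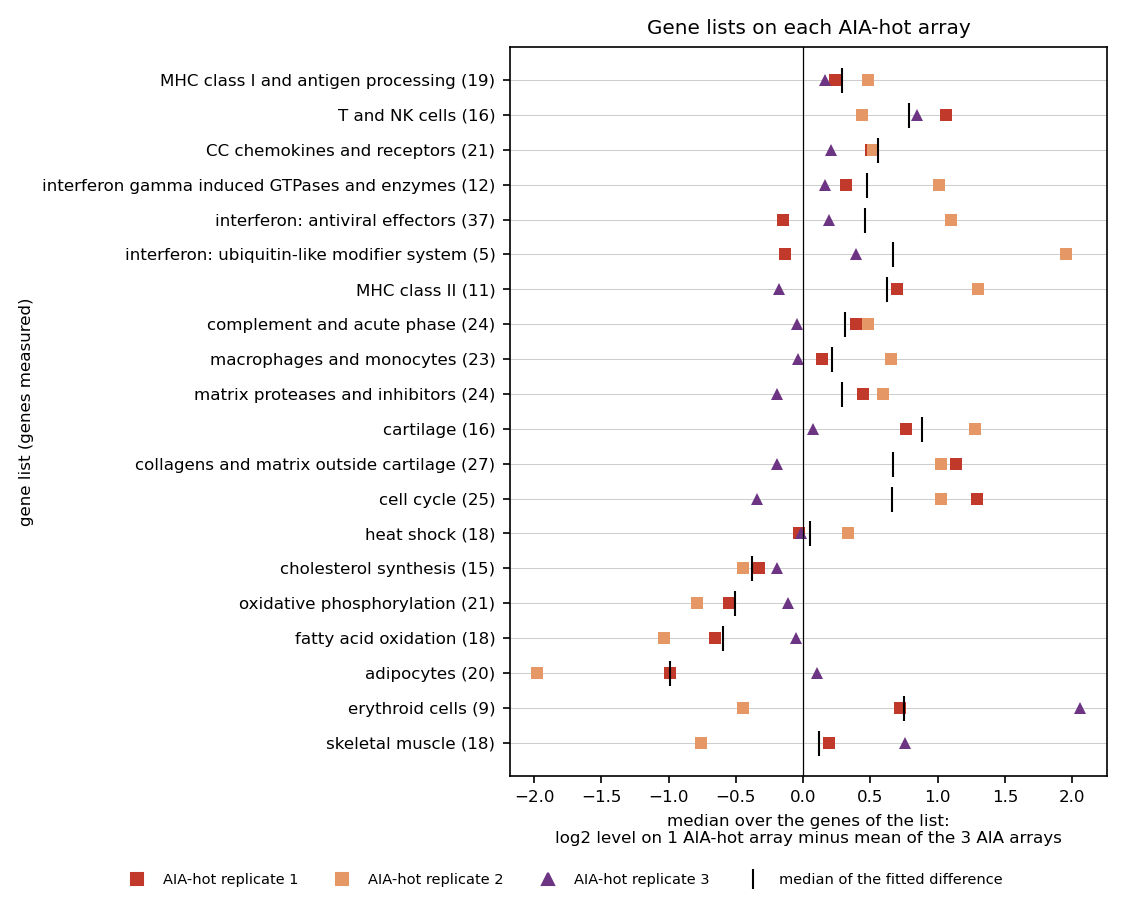
For 20 gene lists (y axis, with the number of genes measured), the median over genes of the log2 level on each AIA-hot array minus the mean of the 3 AIA arrays (x axis); squares are replicates 1 and 2 on slide 2, triangles replicate 3 on slide 3, and black ticks the median of the fitted difference. MHC class I and T and NK cells are above 0 on all 3 arrays, while for collagens, cell cycle and MHC class II the triangle lies below 0.

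Some genes of the matrix had large differences that came from replicates 1 and 2. Megf6, a secreted protein with EGF-like repeats, stood at -1.63, -1.38 and -0.65 in AIA and at 4.12, 4.51 and -0.51 in AIA-hot, a mean difference of 3.92 ± 1.36 or 15.2-fold (adjusted p = 0.866, limma). Mmp13, the collagenase that cuts type II collagen, read -1.47, -2.38 and -2.41 in AIA and 2.75, 3.61 and -3.74 in AIA-hot, so the same group held the highest and the lowest value. Its difference was 2.96 ± 1.85, and 5.58 on the shared slide alone. Of the other proteases, Mmp2 was 1.02 ± 0.53 and Timp1, which inhibits them, 0.80 ± 0.40 higher, both with AIA-hot replicate 3 below every AIA array. Mmp3, stromelysin, read 1.59, 1.02 and 1.68 in AIA and 3.14, 2.87 and 0.32 in AIA-hot. Ctsk, the collagen-cutting cathepsin of osteoclasts and fibroblasts, differed by 0.81 ± 0.50.

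Of 27 measured collagen and matrix genes 22 were higher, but 2 (7.41%) were higher and 2 lower without overlap, close to the background. The list mean was 3.74, 3.82 and 4.17 in AIA and 4.97, 4.94 and 3.74 in AIA-hot. Col1a1, the main collagen of fibroblasts, was 0.98 ± 0.41 higher, at 8.76, 9.06 and 7.84 against 7.28 to 7.78. Col12a1, of tendon and other stressed tissue, was 3.23 ± 1.18 higher, with 0.59 and 0.76 on replicates 1 and 2 and -2.70 on replicate 3. Lox, which cross-links collagen, read 4.91, 5.12 and 2.88 in AIA-hot and 2.25 to 3.04 in AIA. Lum, a proteoglycan of fibroblasts, read 4.37, 4.04 and 0.51 in AIA-hot against 0.77 to 1.54.

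The list mean of cartilage markers was also higher on AIA-hot replicates 1 and 2 than on replicate 3. Unlike the collagen list, its replicate 3 still lay above every AIA array. Comp, a protein of cartilage and tendon, read 7.46, 7.83 and 4.61 in AIA-hot and 4.07 to 4.84 in AIA. Acan, the aggrecan gene, cleared the background on 0 AIA arrays and on AIA-hot replicates 1 and 2, at -0.24 and 0.13 against -5.05 on replicate 3. Tnmd, a tendon gene, ranged from -1.81 to 1.09 in AIA and from 1.22 to 3.94 in AIA-hot. Over 16 cartilage markers, 12 of them higher, the list mean was -0.74 to -0.27 in AIA and -0.19 to 1.05 in AIA-hot. Control replicate 1, the dim array, stood at 5.05, and the other control arrays at -1.07 and 0.315. The part of cartilage or tendon in the matrix result was not tested.

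**Figure D5:**
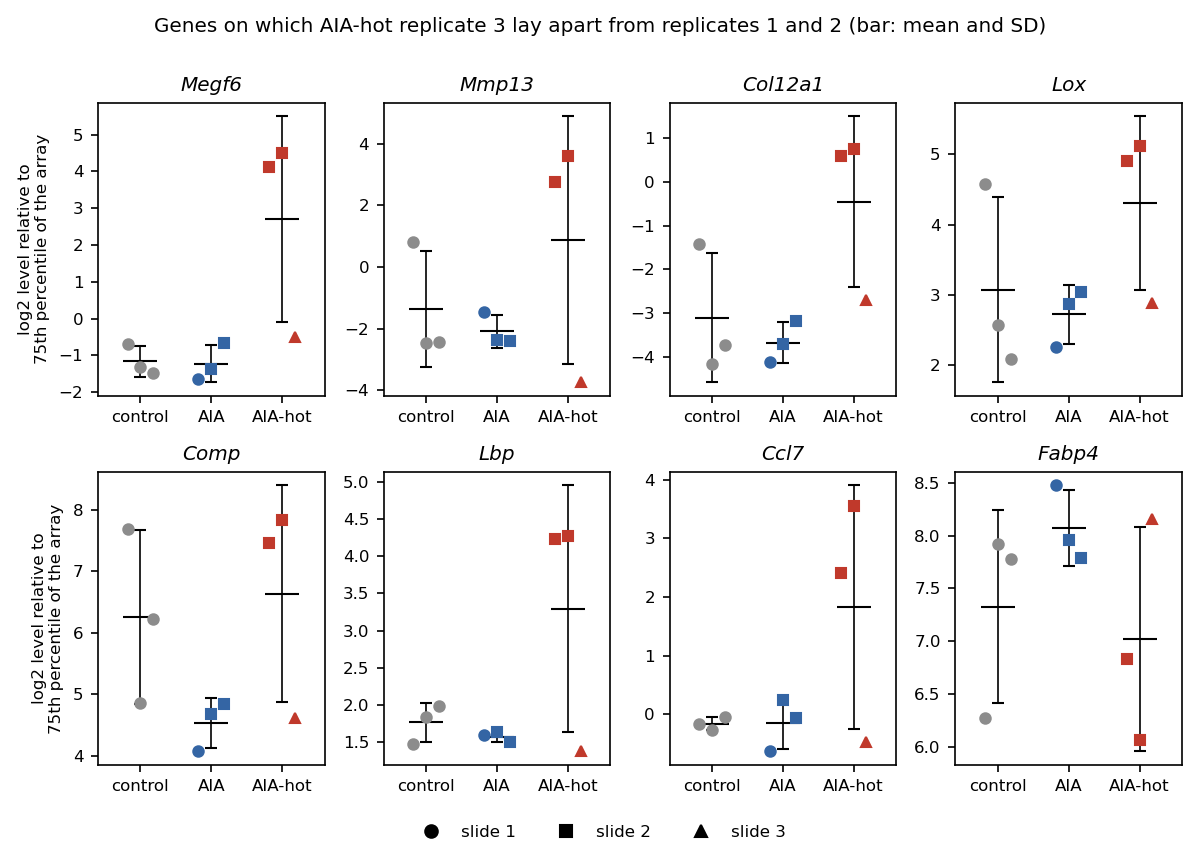
Log2 level relative to the 75th percentile of the array (y axis) for 8 genes of matrix, protease, acute phase, chemokine and fat cell lists on control, AIA and AIA-hot arrays; points are arrays, marker shapes slides, bars mean and SD over 3 arrays. AIA-hot replicate 3, the triangle, sits near the AIA arrays (1.37 for Lbp), apart from replicates 1 and 2 (4.23 and 4.27).

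Cell division genes showed the same split. Of 25 measured genes 24 had a positive difference, with a median of 0.66, but 2 (8%) did not overlap. The list mean was -2.38 to -2.22 in AIA and -1.06, -1.46 and -2.72 in AIA-hot, so replicate 3 was the lowest of the 6 arrays. Ube2c, which marks mitotic proteins for destruction, was 1.03 ± 0.40 higher on all 3 arrays, at -1.86 to -1.48 in AIA and 0.13, -0.61 and -1.32 in AIA-hot. Cdk1, the kinase that starts mitosis, read 2.04, 1.51 and -0.29 in AIA-hot and -0.08 to 0.59 in AIA. Without replicate 3 the median was 1.19, without replicate 1 it was 0.21, and with normexp it was 0.18.

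Adipocyte genes lay lower on AIA-hot replicates 1 and 2. All 20 measured members had a negative difference, with a median of -0.99 and a range from -2.32 to -0.25, yet 1 (5%, against 6.09% of all genes) was free of overlap. The list mean was 5.23, 4.48 and 4.53 in AIA and 3.72, 2.78 and 4.74 in AIA-hot, so replicate 3 lay within AIA. The median was -0.45 without replicate 2 and -1.55 without replicate 3. Fabp4, the fatty acid binding protein of fat cells, read 8.48, 7.96 and 7.78 in AIA and 6.84, 6.06 and 8.16 in AIA-hot. The list mean was 2.86 on control replicate 1, the dim array, and 4.71 and 4.37 on the other control arrays.

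Scd, which desaturates fatty acids, was the member free of overlap. It read 7.64, 6.04 and 7.34 in AIA and 4.32, 4.43 and 5.33 in AIA-hot, a difference of -2.32 ± 0.90 or 4.99-fold lower. A second probe of Scd gave 0.07, so the probes disagreed. Dhcr7, the last enzyme of cholesterol synthesis, read 3.11, 2.53 and 2.72 in AIA and 1.36, 0.36 and 2.23 in AIA-hot, and Pmvk, an earlier enzyme, differed by -0.44, at 1.91 to 2.29 against 1.43 to 1.87. Of 15 measured cholesterol genes 12 were lower, 2 (13.3%) without overlap. The median of that list was -0.38, but -0.09 without AIA replicate 1 and -0.14 on the shared slide alone. Angptl8, a regulator of lipoprotein lipase made by fat and liver, stood at 1.75 to 2.93 in AIA and -0.93 to 1.60 in AIA-hot.

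Mitochondrial genes lay lower beside the fat cell genes. All 21 genes of oxidative phosphorylation had a negative difference, between -0.67 and -0.21, with a median of -0.51, and 0 of them were free of overlap. Without AIA replicate 1, which had the highest list mean, all 21 were still lower but the median was -0.26. Ndufb8, a subunit of complex I, read 7.78, 7.11 and 7.34 in AIA and 6.80, 6.58 and 7.24 in AIA-hot. Replicate 3 was inside the AIA range for the list mean, at 4.38 against 4.25 to 4.95, although 20 of the 21 genes lay below the mean of the AIA arrays there. Of 18 genes of fatty acid oxidation 17 were lower, with a median of -0.60, and Acads, a short-chain dehydrogenase, was lower on all 3 arrays at 4.24, 3.61 and 4.41 against 4.48 to 5.08.

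Some of the genes named as lower were in no list. Pkhd1l1, a large surface protein of the fibrocystin family, read -0.20, -0.15 and -0.08 in AIA and -1.43, -1.79 and -0.77 in AIA-hot, -1.19 ± 0.26 or 2.28-fold lower (adjusted p = 0.824, limma). Control arrays stood at 0.12 to 0.46. Smad7, which inhibits signalling by transforming growth factor beta, read 2.53, 2.29 and 2.34 in AIA and 1.70, 1.96 and 1.91 in AIA-hot, 1.45-fold lower, while the control arrays lay at 2.29 to 2.30. Lrig1, a restraint on growth factor receptors, differed by -0.60, at -0.78 to -0.64 against -1.48 to -0.93. Scg3 and Vsnl1, genes of neuroendocrine cells and neurons, differed by -1.56 and -1.07. Qrfpr, a neuropeptide receptor, was at least 2.27-fold lower, since it was not well above background on any AIA-hot array; such bounds set the brighter group's mean against the lowest level measured well above background in the dimmer group.

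Several higher genes outside the lists were dim in AIA. Uts2r, the receptor of urotensin, was at least 2.86-fold higher and Spred3, an inhibitor of Ras signalling, at least 1.54-fold higher, each not well above background on any AIA array. Cenpm, a centromere protein, and Mfsd10, a transporter, were at least 1.23-fold and 1.43-fold higher. Tubb3, a tubulin of neurons and some other cells, read -4.11, -2.80 and -3.65 in AIA and -1.37, -1.54 and -2.19 in AIA-hot. Chl1, an adhesion protein of nerve cells, was 1.00 ± 0.24 higher. Slpi, a protease inhibitor secreted at inflamed surfaces, was 2.57 ± 0.99 higher, at -1.16 to -0.15 against 3.39, 2.66 and 0.10.

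Genes that answer to heat and cold went both ways. Of 18 heat shock genes 12 were higher and 6 lower, with a median of 0.05. Hspa1b, an inducible heat shock protein, read -0.57, -0.12 and 0.53 in AIA and 1.33, 1.71 and -0.14 in AIA-hot, overlapping through replicate 3. Hspa1a, a near-identical copy, differed by 1.06 ± 0.44 with overlap, and cleared the background on 1 AIA and 2 AIA-hot arrays. Cryab, a small heat shock protein, was lower without overlap, at 2.52 to 2.99 against 3.17 to 3.24. Of 5 cold-inducible genes 2 were higher and 3 lower, and the list mean was 1.73 to 1.94 in AIA-hot and 1.95 to 2.05 in AIA. Rbm3, the RNA-binding protein induced by cooling, was at 1.11, 1.25 and 1.36 in AIA-hot and at 1.32 to 1.90 in AIA. The 6 measured genes of thermogenesis had a median of -0.75, with 5 lower and 1 higher.

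How slide entered the fit changed the count of genes that passed. With slide as a fixed block, which rests on the 2 AIA-hot and 2 AIA arrays of slide 2, 140 genes passed at an adjusted p under 0.05 (limma), 119 higher and 21 lower, and 40 of them had no overlap over all 6 arrays. With the block, Cd8b differed by 2.06 (adjusted p = 0.0395, limma), Cd3g by 2.47, Ccl2 by 1.99, Ccl7 by 2.89, Timp1 by 1.45, Mmp2 by 1.63, Megf6 by 5.32 and Pkhd1l1 by -1.50, with adjusted p from 0.0138 to 0.0481. A random block for slide gave 0 genes. With AIA and AIA-hot limited to their arrays on slide 2, 0 genes passed (smallest adjusted p = 0.128, limma). The spread in that fit was still estimated with the arrays of the other groups, on other slides. Leaving out AIA-hot replicate 3, 3 genes passed, Crispld2, Chi3l1 and Lrrc2. Among the 140, out of 23617 tested, T and NK cells had 2 of 16 genes and CC chemokines and receptors 2 of 21. Complement and acute phase had 2 of 24, matrix proteases 2 of 24 and synovial fibroblasts 2 of 19. Collagens had 1 of 27, and MHC class I had 0 of 19.

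None of the genes named above passed the test of AIA-hot against AIA-cold, which asks whether a difference from AIA is larger in one model than in the other. All 3 AIA-cold arrays lay on slide 4, which held no AIA-hot or AIA array, so model and slide cannot be told apart here. Of 23617 genes, 2 (0.00847%) passed at an adjusted p under 0.05 (limma), and both are named from that test. Zim1, an imprinted zinc finger gene, differed by -2.45 (adjusted p = 0.0408, limma), at -3.20 to -2.85 in AIA-hot and -1.14 to -0.31 in AIA-cold. Alox15b, a lipoxygenase, was at least 2.97-fold lower (adjusted p = 0.0408, limma), well above background on 0 AIA-hot and all 3 AIA-cold arrays. Against plain AIA, Zim1 differed by -0.43 in AIA-hot. For T and NK cell genes the AIA-cold arrays had means of -2.29 to -1.99, beside -2.06 to -1.42 in AIA-hot and -2.70 to -2.43 in AIA. The class I list had means of 3.19 to 3.43 in AIA-cold and 3.46 to 3.82 in AIA-hot.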

How the data were processed

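Total RNA was labelled with 1 dye and hybridised to 18 arrays, 3 for each of 6 groups taken from the labels. The deposited files held scanner intensity values per spot; the background had been subtracted and a spatial trend removed within each array, with no scaling between arrays, per the file headers, and Agilent Feature Extraction 10.7 is named in the submitters' processing notes. The authors' deposited series table, taken as log2 values because it correlated with the log2 scanner values at 0.9887 to 0.9999, had column medians of 5.40 to 5.42; which normalization made it is not given in the sources used here, and it served as an alternative. Of 43379 gene spots (41012 probes), outlier spots were left out, log2 was taken, and the 75th percentile of each array was subtracted. No spot was saturated (0). A probe was kept if all 3 arrays of some group showed it well above background (28271 probes), and a gene was its brightest kept probe. Names came from the files, updated through accessions by the RefSeq table of build GRCr8 (18507 probes), symbols (2900) or synonyms (386); 19219 probes kept the file's name.

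One model was fitted to all 18 arrays (lmFit and eBayes of limma 3.58.1, run in R 4.3.3, with 12 residual and 2.28 prior degrees of freedom), with p-values adjusted over all 23617 genes; the contrast was AIA-hot minus AIA. The number of arrays limits the precision. The test was run on simulated data. Named genes were the 10 higher and 10 lower genes with a symbol, no overlap and the smallest p, the 6 and 6 with the largest difference among those well above background on all 6 arrays, 10 genes of arthritis listed by name, and up to 4 members of each of 40 lists with the smallest p (666 of 804 list members were measured); any further gene was picked with its values known. The comparison and the lists were chosen with earlier results of these data known, so no list is independent evidence. Alternatives covered normalization, background correction, the filter on dim probes, the choice of probe, the slide, the arrays in the fit, and each replicate left out. Groups given other compounds are not analysed here. Some genes that the rule names are not reported here.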

Additional observations from a re-analysis of the deposited data

How the results depend on the processing

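The count of genes that passed, 0 in the reported fit, was 2 with quantile normalization, 1 with the values of the series table, 1 with only the 6 arrays compared and 140 with slide as a fixed block, and ranged from 0 to 3 over leaving out each replicate. It was 0 with normexp, with no or a stricter filter, without control replicate 1 and with slide as a random block. It was also 0 with AIA and AIA-hot limited to the shared slide, with all probes averaged and with a trended robust eBayes. At an unadjusted p under 0.05 the count was 479 without AIA-hot replicate 2 and 3031 without AIA-hot replicate 3, against 1212. The median of all genes was -0.08 with normexp and -0.12 with no filter. Of 191 named genes, 40 were followed here: those named by smallest p, by largest difference or as genes of arthritis. Of these 40, 37 kept their direction in every alternative. Genes named for having no overlap cannot change direction when arrays are left out, so that count does not measure their stability. The genes named only as list members were not followed in this way. Il6 was -0.0715 with normexp, and over leaving out replicates it ranged from -0.17 to 0.61, S100a8 from -0.47 to 1.66 and S100a9 from -0.26 to 1.61. No paired analysis was possible because the labels give every array the same replicate name. Values that did not pass are not shown to be equal. The cause of these shifts was not tested.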

Other observations

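Transcripts without a gene symbol gave the only passes under another normalization: ENSRNOT00000064760 with quantile normalization and with the series table, and AA925353 with quantile normalization, where it was not well above background on any AIA or AIA-hot array.

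Clock genes lay on both sides. Bmal1, the activator of the clock, read 1.28, 1.56 and 1.55 in AIA and 0.98, 0.69 and 1.20 in AIA-hot, while Dbp, one of its targets, read 1.54, 1.35 and 0.85 against 1.75, 2.47 and 1.80, and neither overlapped. Of 16 measured clock genes 9 were higher and 7 lower, 4 (25%) higher and 1 (6.25%) lower without overlap. The hour of sampling is not given in the sources used here.

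Red blood cell genes were highest on AIA-hot replicate 3, with a list mean of 1.75 against -0.30 to 0.48 in AIA and 0.79 and -0.36 on AIA-hot replicates 1 and 2. Endothelial genes were lower for 20 of 25 members, with a median of -0.18 and 0 free of overlap. Muscle genes varied as much within AIA (list means -2.54 to -0.54) as within AIA-hot (-2.13 to -0.61).

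Several lists were not described above. The 8 RNA and DNA sensors had 8 higher and a median of 0.41, which was 0.08 without AIA-hot replicate 2. CXC chemokines and receptors had 9 of 16 higher (median 0.25), Toll-like receptor and NF-kB genes 18 of 30 (0.11), B and plasma cell genes 3 of 4 (0.42), mast cell genes 3 of 9 (-0.12), bone genes 6 of 12 (0.03), osteoclast genes 3 of 7 (-0.26), and synovial fibroblast genes 13 of 19 (0.15). Immediate early genes had 16 of 22 higher (0.11), glucocorticoid-induced genes 6 of 14 (-0.08), unfolded protein response genes 10 of 14 (0.07), eicosanoid genes 8 of 20 (-0.10) and glycolytic genes 7 of 23 (-0.18).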
